A study of Mus musculus with 7 samples.

Results

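Hyaluronan is a long sugar polymer of the skin's extracellular matrix, and 10 genes that make it, cut it or bind it were followed in aged mouse skin after topical ABT-263: Has1, Has2, Has3, Hyal1, Hyal2, Cemip, Cd44, Vcan, Tnfaip6 and Hapln3. They were chosen by name, as synthases, degrading enzymes, a receptor and binding proteins, from the 55450 genes of the count table, and all 10 had enough counts to be tested. The choice was made with earlier results of these data known, so comparisons of the 10 with all genes are descriptions only. ABT-263 (navitoclax) is an inhibitor of anti-apoptotic Bcl-2 family proteins that is used as a senolytic, a drug that removes senescent cells. The question was how a 5-day application changed the expression of these genes in skin that had not yet been wounded. Dorsal skin of male C57BL/6 mice aged 24 months was sequenced in bulk after 5 days under 5 μM ABT-263 (3 mice, numbered 476, 477 and 478) or under its vehicle DMSO (4 mice, numbered 480 to 483). Both groups had had their hair clipped and removed with a depilatory lotion, their skin cleansed with ethanol, and the treated area kept under a semi-occlusive dressing. Untreated or young skin was not analysed here.

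In skin, hyaluronan is made at the cell surface by the synthases HAS1, HAS2 and HAS3, which join 2 UDP-sugars into a chain and push it out of the cell. Fibroblasts and keratinocytes are its main sources there. The chain is bound by proteins that carry a Link module, among them the receptor CD44, the proteoglycan versican (Vcan), TSG-6 (Tnfaip6) and the link protein Hapln3, and it is broken down by CEMIP and the hyaluronidases HYAL2 and HYAL1. Its turnover is fast, and long and short chains are known to act differently on cells during inflammation and repair.

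Of the 10 genes, 3 passed the threshold (quasi-likelihood test of edgeR, Benjamini-Hochberg adjusted p under 0.05) with higher levels in ABT-263-treated skin, namely Has2, Cemip and Vcan. Among all 17959 genes tested, 12.4% were higher and 11.7% lower at this threshold. None of the 10 was lower, either by the adjusted or by the unadjusted p-value (0 genes), and the Wald test of DESeq2 also gave 3 higher and 0 lower. The median log2 fold change of the 10 genes was 0.88, against 0.0 over all genes tested. Without ABT-263-treated mouse 476 this median was 0.16, and with any other mouse left out it was 0.73 to 1.08. With limma on the deposited variance-stabilized values it was 0.52. In the same 3 genes every ABT-263-treated mouse was above every DMSO-treated mouse, which held for 18.7% of all genes tested. Of the 3 calls, only that for Vcan was kept with each mouse left out in turn. Expression is given as CPM, the read pairs of a gene scaled to a common library size by the TMM method, SE is the standard error of a log2 fold change, and fold changes are ABT-263 over DMSO. In whole skin, a change in the number of cells that express a gene cannot be told apart from a change in its RNA per cell.

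**Figure D1:**
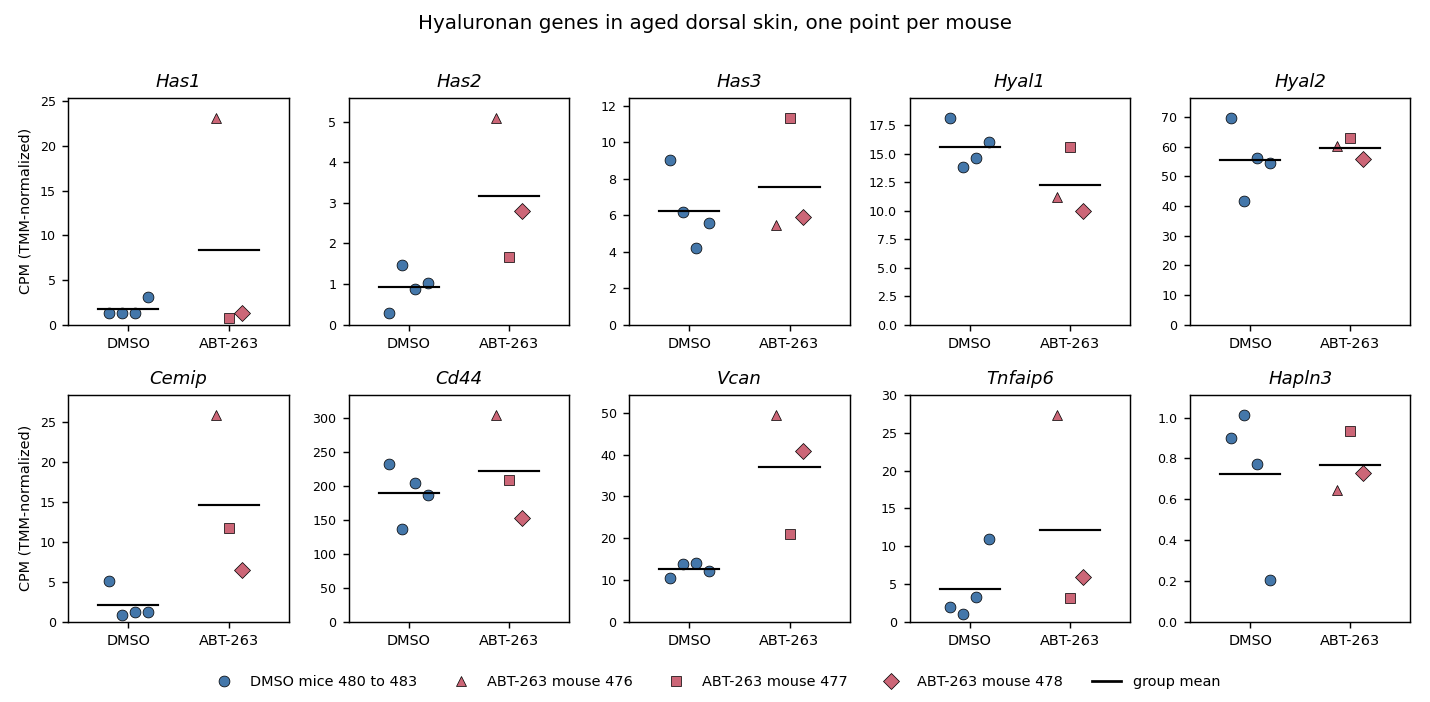
TMM-normalized expression in CPM (y axes, linear, from 0) of the 10 hyaluronan genes in each of the 4 DMSO-treated and 3 ABT-263-treated mice, with lines at the group means. For Has2, Cemip and Vcan all ABT-263 points lie above all DMSO points, whereas for Has1 and Tnfaip6 1 ABT-263-treated mouse, 476, lies far above the other 2.

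The libraries held between 20344364 and 43562330 counted read pairs, with the 3 ABT-263 libraries the deepest. The keratinocyte genes Krt5 and Krt14 and the fibroblast gene Col1a2 were abundant in all 7 mice, as is usual for skin. Skeletal muscle markers (4 genes, 1 lower) were abundant too, with sums of 22200 to 47600 CPM after DMSO and 15400 to 23800 CPM after ABT-263. The summed expression of 5 macrophage markers was 99.2 to 234 CPM after DMSO and 352 to 737 CPM after ABT-263, and all 5 passed the threshold. That of 5 neutrophil markers was 99.7 to 1820 CPM after DMSO and 5090 to 8090 CPM after ABT-263, with 2 of the 4 tested past the threshold. S100a8 and S100a9 held most of these sums, at 1710 to 2910 and 3350 to 5020 CPM after ABT-263. The 4 tested were each higher in all ABT-263-treated mice than in any DMSO-treated mouse. Ly6g, below the filter on low counts, was at 14.0 CPM in mouse 476. In mice 477 and 478 it was at 0.101 and 0.172 CPM, inside the DMSO range of 0.0 to 0.253 CPM. Fibroblast markers (5 genes, 3 past the threshold) summed to 1870 to 2590 CPM after DMSO and 3430 to 4850 CPM after ABT-263. DMSO-treated mouse 481 stood apart for 3 hair follicle markers, at 1930 CPM against 8.43 to 9.13 CPM in the other DMSO-treated mice, and ABT-263-treated mouse 478 was at 407 CPM. Blood endothelial markers (4 genes, all past the threshold) summed to 93.3 to 199 CPM after DMSO and 297 to 399 CPM after ABT-263, and 3 melanocyte markers (1 lower) to 77.2 to 287 CPM and 6.87 to 45.7 CPM.

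Among the synthases, Has2 rose and Has1 and Has3 did not pass the test. Gene positions are those of GENCODE M21 on genome build GRCm38. Has2 (chromosome 15, 56665627 to 56694539, minus strand), the synthase that is indispensable for embryonic development, was at 0.286, 1.47, 0.873 and 1.03 CPM in DMSO-treated mice 480 to 483 and at 5.08, 1.66 and 2.79 CPM in ABT-263-treated mice 476 to 478. Every ABT-263-treated mouse was above every DMSO-treated mouse, by the smallest margin between mice 481 and 477. The log2 fold change was 1.79 (SE 0.55, edgeR adjusted p = 0.048), and the exact permutation test of the 2 groups gave p = 0.0286 (two-sided), the smallest that 4 mice against 3 allow. These values rest on 7 to 35 read pairs per mouse after DMSO and 66 to 142 after ABT-263. The call held in 1 of the 7 fits with a mouse left out, that without mouse 477, and the adjusted p rose to 0.164 without mouse 476. It was also lost with all libraries thinned to the size of the smallest (adjusted p = 0.0843, log2 fold change 1.63).

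Has1 (chromosome 17, 17843323 to 17855205, minus strand) encodes a synthase that inflammatory cytokines can induce. It was at 1.27, 1.26, 1.28 and 3.12 CPM in mice 480 to 483 after DMSO and at 23.1, 0.731 and 1.29 CPM in mice 476 to 478 after ABT-263. A single ABT-263-treated mouse, 476, was thus high, mouse 477 was the lowest of all 7, and the groups overlapped. The log2 fold change was 2.26 (SE 1.12, edgeR adjusted p = 0.173), short of the threshold, and became -0.77 without mouse 476. Has3 (chromosome 8, 106870242 to 106884566, plus strand), which is prominent in epidermis, was at 9.0, 6.19, 4.21 and 5.55 CPM after DMSO and at 5.43, 11.3 and 5.89 CPM after ABT-263. The groups overlapped, and its log2 fold change was 0.27 (SE 0.34, edgeR adjusted p = 0.585). The mice with the highest Has3, 477 and 480, also had the highest summed expression of 4 basal keratinocyte markers, at 35500 and 30900 CPM against 13500 to 19100 CPM in the other mice. Krt5 and Krt14 held most of these sums. Krt15 and Col17a1 were lowest among DMSO-treated mice in mouse 480 (1100 and 358 CPM) and highest among ABT-263-treated mice in mouse 477 (943 and 544 CPM). The summed suprabasal markers (24300 and 37600 CPM) and wound keratinocyte markers (21800 and 19000 CPM) were also highest in mice 477 and 480. The part of keratinocyte content in the Has3 values was not tested.

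Per kilobase of exon, a scale on which genes can roughly be set side by side, Has3 was the most abundant synthase transcript in all 4 DMSO-treated mice, at 0.66 to 1.41 CPM per kb, or 48.2% to 80.2% of the sum of the synthases. It was also first in ABT-263-treated mice 477 and 478, with 76.1% and 49.4%. In mouse 476 the order was Has1, Has2, Has3, with Has1 at 5.12 CPM per kb and 71.4% of the sum. The sum itself was 1.15 to 1.8 CPM per kb after DMSO and 7.17, 2.33 and 1.87 CPM per kb in mice 476, 477 and 478. Has2 was second in all ABT-263-treated mice and last in 3 of the 4 DMSO-treated mice, though in several mice it and Has1 lay close together. The length used is that of all annotated exons, not of the transcripts present. The order of close values, such as Has3 (0.869) and Has1 (0.691 CPM per kb) in mouse 483, is therefore uncertain.

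**Figure D2:**
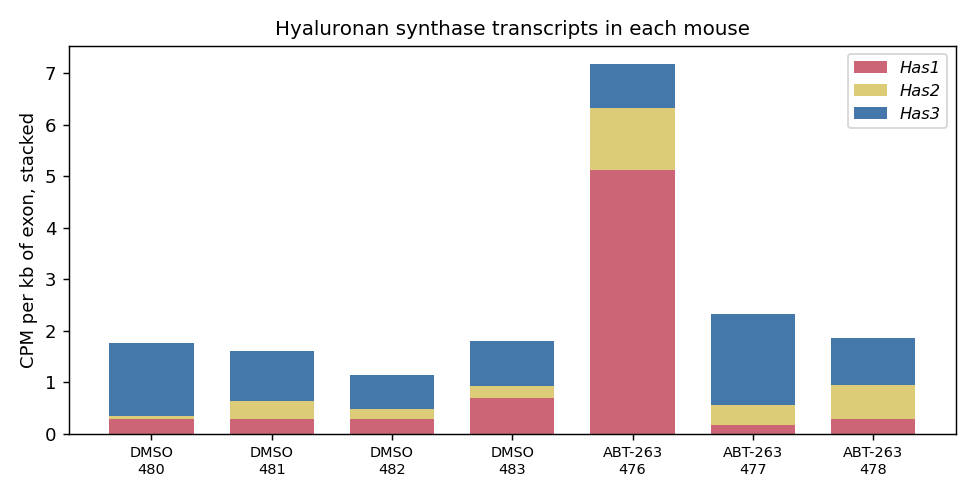
Expression of the hyaluronan synthases Has1, Has2 and Has3 in CPM per kilobase of exon (y axis, linear, from 0), stacked for each of the 7 mice. Has3 makes up the largest segment in every mouse but ABT-263-treated mouse 476, where Has1 reaches 5.12 CPM per kb.

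Among the degrading enzymes, Cemip rose and the hyaluronidases did not pass the test. CEMIP (also HYBID or KIAA1199) binds hyaluronan and is needed for its depolymerization by dermal fibroblasts, outside the classical hyaluronidase family. Cemip (chromosome 7, 83932857 to 84086502, minus strand) was at 5.07, 0.801, 1.23 and 1.27 CPM in mice 480 to 483 after DMSO and at 25.8, 11.7 and 6.44 CPM in mice 476 to 478 after ABT-263. The groups did not overlap, although DMSO-treated mouse 480 came close to ABT-263-treated mouse 478. The log2 fold change of 2.8 was the largest of the 10 genes (SE 0.72, edgeR adjusted p = 0.0307), while the exact permutation test gave p = 0.0571 (two-sided). The estimate was 3.73 without mouse 480 and 2.11 without mouse 476, and the call held in 2 of the 7 fits with a mouse left out, those without mice 480 and 478. Testing every gene with a count also ended the call (adjusted p = 0.0952).

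Hyal2 (chromosome 9, 107567945 to 107572779, plus strand) encodes a membrane-anchored hyaluronidase that cuts long chains, and Hyal1 (chromosome 9, 107576927 to 107581710, plus strand) a lysosomal one that cuts them further. Hyal2 was at 69.6, 41.7, 56.2 and 54.6 CPM after DMSO and at 60.3, 63.0 and 55.9 CPM after ABT-263, and the log2 fold change was 0.11 (SE 0.17, edgeR adjusted p = 0.679). All ABT-263 values of Hyal2 lay within the range of the DMSO values. Hyal1 was at 4.79, 3.66, 3.86 and 4.24 CPM per kb of exon after DMSO and at 2.97, 4.12 and 2.65 CPM per kb after ABT-263, with a log2 fold change of -0.35 (SE 0.19, edgeR adjusted p = 0.215). It was the only one of the 10 with a negative estimate, and ABT-263-treated mouse 477 lay within the DMSO range. The count of Hyal1 is uncertain, since 51.9% of its exon bases overlap Hyal3 or Naa80 on the same strand. On the per-kilobase scale Hyal2 was far above the other degrading enzymes, at 16.9 ± 3.47 CPM per kb (SD, n = 4) after DMSO, against 4.14 ± 0.497 for Hyal1 and 0.171 ± 0.163 for Cemip. After ABT-263 (SD, n = 3) these levels were 18.1 ± 1.08 for Hyal2, 3.25 ± 0.775 for Hyal1 and 1.2 ± 0.82 for Cemip, so that the order was the same.

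Of the binding proteins, Vcan rose and the others did not pass the test. Versican is a large chondroitin sulfate proteoglycan that forms aggregates with hyaluronan and is abundant in provisional matrix and in the dermal papilla. Vcan (chromosome 13, 89655312 to 89742509, minus strand) was at 10.4, 13.9, 14.0 and 12.2 CPM in mice 480 to 483 after DMSO and at 49.4, 21.1 and 40.8 CPM in mice 476 to 478 after ABT-263. The lowest ABT-263-treated mouse was above the highest DMSO-treated mouse, and the DMSO values lay close together (coefficient of variation 13.3%). The log2 fold change was 1.55 (SE 0.27, edgeR adjusted p = 0.00987), a 2.94-fold rise, and the exact permutation test gave p = 0.0286 (two-sided). Over the 7 fits that each leave out a mouse the estimate stayed between 1.3 and 1.87, and all of them kept the call. The summed fibroblast, macrophage, neutrophil, blood endothelial and melanocyte markers given above also separated the groups, with only the melanocyte sum lower after ABT-263. Of the fibroblast markers, Dcn and Dpt overlapped between the groups. The part of these cell types in the rise of Has2, Cemip and Vcan was not tested.

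The 2 genes with both a call and a RefSeq promoter entry were Cemip and Vcan, and the 250 bases before their starts are shown because these are the promoters of the genes that rose (genome build GRCm38.p6). Of the 10 genes, 8 had an entry, and Has2 and Has3 are named only. Capitals mark motif matches on either strand, and no 2 matches overlap. The TATA box was searched as TATAAA. The GC box, bound by Sp1, was searched as GGGCGG. The AP-1 motif was searched as TGANTCA, where N is any base.
Cemip (chr7:84086506-84086755, minus strand): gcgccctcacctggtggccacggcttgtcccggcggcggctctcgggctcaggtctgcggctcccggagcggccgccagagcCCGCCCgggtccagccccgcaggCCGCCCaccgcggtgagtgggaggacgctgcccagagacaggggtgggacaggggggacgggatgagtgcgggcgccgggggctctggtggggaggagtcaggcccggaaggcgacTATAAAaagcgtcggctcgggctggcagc
Vcan (chr13:89742513-89742762, minus strand): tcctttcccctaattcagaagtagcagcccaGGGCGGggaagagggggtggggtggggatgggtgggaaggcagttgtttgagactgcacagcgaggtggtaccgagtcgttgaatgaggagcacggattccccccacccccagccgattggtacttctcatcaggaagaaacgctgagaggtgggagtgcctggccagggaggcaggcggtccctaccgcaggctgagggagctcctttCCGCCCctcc
The Cemip window held a TATA box that began 29 bases before the start and 2 GC boxes, and 75.2% of its bases were G or C, against a median of 52.4% over all promoters. The Vcan window held 2 GC boxes, the nearer ending 5 bases before the start. Among 32851 RefSeq promoter windows of the same length, 12.4% held the TATA box letters, 6.75% those of AP-1 and 32.7% the GC box. Among the 8 windows the AP-1 letters were found in that of Tnfaip6 alone. Such matches describe the letters only and show no binding.

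Cd44 (chromosome 2, 102811141 to 102901665, minus strand), the main cell surface receptor for hyaluronan on leukocytes, fibroblasts and basal keratinocytes, was the most abundant of the 10 transcripts per kilobase of exon in each of the 7 mice. It was at 232, 136, 205 and 187 CPM after DMSO and at 304, 209 and 153 CPM after ABT-263. Only mouse 476 lay above the DMSO range, and the log2 fold change was 0.23 (SE 0.26, edgeR adjusted p = 0.556), short of the threshold. On the per-kilobase scale Cd44 went from 28.0 ± 6.0 CPM per kb (SD, n = 4) to 32.8 ± 11.3 (SD, n = 3). The counts are per gene, so that the standard and variant forms of Cd44 were not separated.

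Tnfaip6 (chromosome 2, 52038009 to 52056686, plus strand) encodes TSG-6, which is secreted in inflammation and transfers the heavy chains of inter-alpha-inhibitor onto hyaluronan. It was at 2.01, 0.969, 3.29 and 10.9 CPM after DMSO and at 27.3, 3.2 and 5.89 CPM after ABT-263. The groups overlapped: mouse 476 was the highest of all and DMSO-treated mouse 483 the second highest. The log2 fold change was 1.49 (SE 0.95, edgeR adjusted p = 0.278), with 0.09 in the fit without mouse 476 and 2.54 in that without mouse 483. Hapln3 (chromosome 7, 79115102 to 79131018, minus strand), a link protein that fastens proteoglycans to hyaluronan, was scarce, with 5 to 24 read pairs per DMSO-treated mouse and 18 to 37 per ABT-263-treated mouse. Its levels were 0.205 to 1.01 CPM after DMSO and 0.644 to 0.933 CPM after ABT-263, with the ABT-263 values inside the DMSO range (log2 fold change 0.1, SE 0.52, edgeR adjusted p = 0.91).

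**Figure D3:**
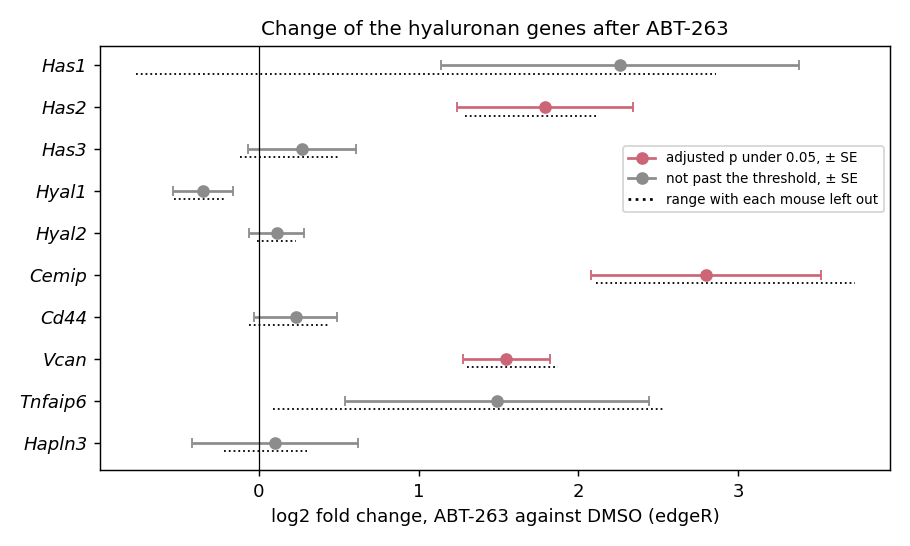
Log2 fold change of each hyaluronan gene, ABT-263 against DMSO, from edgeR (x axis; points with standard errors; 4 and 3 mice), with dotted lines for the range over the fits that leave out 1 mouse. Has2, Cemip and Vcan are past the threshold, and the dotted line of Has1 runs from -0.77 to 2.86.

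The ABT-263-treated mice differed among themselves. Mouse 476 had the highest value of the 3 in Has1, Has2, Cemip, Cd44, Vcan and Tnfaip6, that is in 6 of the 10 genes, whereas it was the highest in 33.6% of all genes tested. Mouse 477 was the highest in the other 4, Has3, Hyal1, Hyal2 and Hapln3, against 35.2% of all genes tested. Between the highest and the lowest ABT-263-treated mouse, Has1 differed 31.6-fold, Tnfaip6 8.52-fold, Cemip 4.01-fold and Has2 3.05-fold, but Hyal2 only 1.13-fold. The summed macrophage and neutrophil markers were also highest in mouse 476, at 737 and 8090 CPM, and their part in these differences was not tested.

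Further genes of the pathway were taken from 7 lists of 51 genes, of which 40 were tested. At the same threshold 12 were higher and 3 lower after ABT-263, where 24.2% of all genes tested passed in either direction. Without mouse 482, the DMSO-treated mouse with the strongest effect on this count, 2 were higher and 2 lower, and 10.3% of all genes tested passed. The most even group was that of the enzymes that make the UDP-sugars from which the synthases build the chain. All 7 were tested, all had a positive log2 fold change (0.18 to 1.03, median 0.83), and 4 passed the threshold.

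Pgm3, the phosphoglucomutase of the hexosamine pathway, was at 5.28, 4.72, 4.98 and 4.72 CPM in mice 480 to 483 after DMSO and at 11.1, 9.68 and 9.3 CPM in mice 476 to 478 after ABT-263. The groups lay well apart with little spread within each. Its log2 fold change was 1.03 (SE 0.16, edgeR adjusted p = 0.00818), and all 7 fits with a mouse left out kept the call. Ugdh, which oxidizes UDP-glucose to UDP-glucuronic acid, was at 17.6 to 25.1 CPM after DMSO and 28.2 to 44.6 CPM after ABT-263 (log2 fold change 0.8, edgeR adjusted p = 0.0216), and 4 of these 7 fits kept the call. Uap1, which forms UDP-N-acetylglucosamine, was at 14.9, 23.3, 23.5 and 25.1 CPM after DMSO and at 56.5, 25.3 and 43.4 CPM after ABT-263 (log2 fold change 0.94, edgeR adjusted p = 0.045). Mouse 477 was only just above the highest DMSO-treated mouse for Uap1, and the call was kept in 1 of the 7 fits with a mouse left out. It was also lost with trends on length and GC content removed and with limma on the variance-stabilized values. Gnpnat1, the acetyltransferase of the same pathway, rose by 0.83 on the log2 scale (edgeR adjusted p = 0.0458), a call kept in 1 of these 7 fits and lost with every gene tested. Gfpt2 and Gfpt1, the amidotransferases that start the pathway, had log2 fold changes of 1.01 (adjusted p = 0.0567) and 0.56 (adjusted p = 0.127), and in both mouse 477 lay within the DMSO range. Ugp2, which makes UDP-glucose also for glycogen, was at 98.9 to 416 CPM after DMSO and 182 to 473 CPM after ABT-263, with no separation (edgeR adjusted p = 0.826). These enzymes also supply other glycans, so their levels are not specific to hyaluronan.

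**Figure D4:**
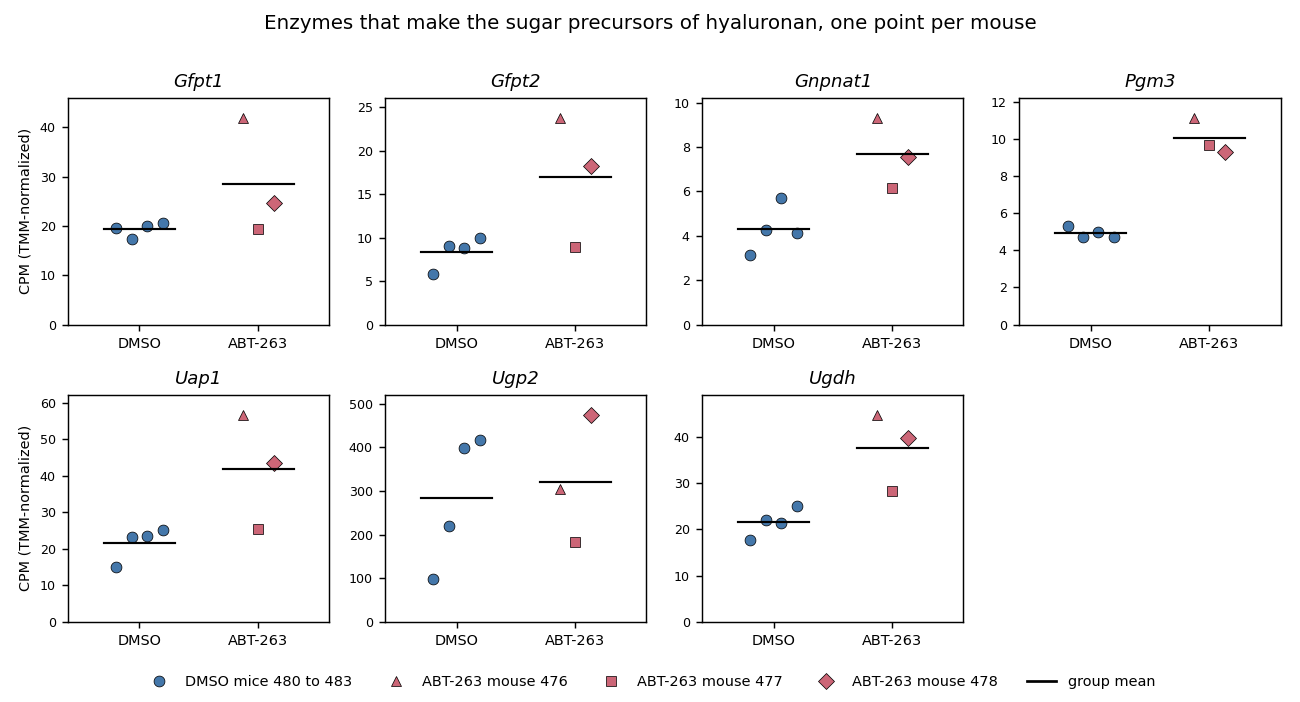
TMM-normalized expression in CPM (y axes, linear, from 0) of the 7 enzymes that make the UDP-sugar precursors of hyaluronan, 1 point per mouse with lines at the group means. The groups are apart in Gnpnat1, Pgm3, Uap1 and Ugdh, by the widest margin in Pgm3, and ABT-263-treated mouse 477 is the lowest ABT-263 point in all panels but that of Pgm3.

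Other receptors for hyaluronan were tested in 5 genes, of which 1 passed as higher, against 12.4% of all genes tested. Layn, which encodes layilin, a membrane protein with a C-type lectin domain, was at 3.23, 1.69, 2.77 and 3.2 CPM after DMSO and at 9.58, 4.03 and 6.64 CPM after ABT-263. No ABT-263-treated mouse overlapped the DMSO range (log2 fold change 1.31, SE 0.35, edgeR adjusted p = 0.0313), and 2 of the 7 fits with a mouse left out kept the call. Stab1, a scavenger receptor of macrophages and some endothelia, was at 37.1 to 106 CPM after DMSO and 124 to 164 CPM after ABT-263 without passing the threshold (log2 fold change 0.82, adjusted p = 0.104). For Lyve1, a receptor of lymphatic endothelium and some macrophages, the estimate was 0.74 (adjusted p = 0.273), and for Hmmr and Stab2 it was -0.41 and -0.86 (adjusted p = 0.389 and 0.303).

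Of 17 other hyaluronan-binding matrix and plasma proteins, 9 were tested and 2 were lower, against 11.7% of all genes tested. Acan, which encodes aggrecan, was at 1.8, 6.49, 2.41 and 1.77 CPM after DMSO and at 0.179, 0.832 and 0.687 CPM after ABT-263. All ABT-263-treated mice were below all DMSO-treated mice. Its log2 fold change was -2.42 (SE 0.67, edgeR adjusted p = 0.0347), and 1 of the 7 fits with a mouse left out kept the call. The ABT-263 values rest on 5 to 33 read pairs per mouse. The highest Acan was in mouse 481, the mouse with the high hair follicle markers. ABT-263-treated mouse 478, with these markers at 407 CPM, was below mouse 477 for Acan, which had them at 6.79 CPM. The part of hair follicles in the Acan values was not tested. Over the fits with a mouse left out, the log2 fold change of Acan ranged from -2.78 to -1.78. Habp4, named for hyaluronan binding but known mainly as an intracellular RNA-binding protein, was at 51.7 to 60.7 CPM after DMSO and 28.6 to 32.2 CPM after ABT-263 (log2 fold change -0.94, SE 0.12, edgeR adjusted p = 0.00619), a call kept in all 7 such fits. Ptx3, a pentraxin that joins TSG-6 in the hyaluronan matrix, was at 1.72, 2.82, 5.03 and 15.9 CPM after DMSO and at 207, 6.07 and 9.92 CPM after ABT-263. As for Has1 and Tnfaip6, 1 mouse, 476, was far above the rest, and the groups overlapped (log2 fold change 3.54, SE 1.37, edgeR adjusted p = 0.102).

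The other degrading enzymes showed small or uncertain differences. Cemip2, a membrane relative of Cemip, was at 15.1 to 27.6 CPM after DMSO and 15.9 to 33.9 CPM after ABT-263 (log2 fold change 0.13, edgeR adjusted p = 0.787). Hyal3 and Hyal4 were below 1 CPM in all 7 mice, with log2 fold changes of -0.98 and 0.39 (adjusted p = 0.21 and 0.505). Of the lysosomal enzymes that remove the sugars at the chain ends, Gusb, beta-glucuronidase, was at 26.3 to 42.7 CPM after DMSO and 54.7 to 86.9 CPM after ABT-263. Gusb rose by 0.87 on the log2 scale (SE 0.22, edgeR adjusted p = 0.0285), a call that 2 of the 7 fits with a mouse left out kept. For Hexa, another of these enzymes, the estimate was 0.18 (edgeR adjusted p = 0.652).

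Around CD44, the proteins that link it to actin did not move together. Ezr, ezrin, was at 105, 72.6, 74.6 and 63.5 CPM after DMSO and at 125, 173 and 146 CPM after ABT-263 (log2 fold change 0.91, edgeR adjusted p = 0.0175), a call lost without mouse 482 (adjusted p = 0.0556) or 478. Rdx, radixin, went the other way, from 140 to 188 CPM in the DMSO-treated mice down to 77.8 to 99.6 CPM in the ABT-263-treated mice (log2 fold change -0.95, adjusted p = 0.00845), a call kept in all 7 fits with a mouse left out. Msn, moesin, rose by 0.84 on the log2 scale (adjusted p = 0.0408), which lost the call in 5 of these 7 fits, with length and GC trends removed and with limma on the variance-stabilized values. Adam10, a sheddase of CD44, was at 38.9 to 42.4 CPM after DMSO and 53.2 to 81.3 CPM after ABT-263 (log2 fold change 0.72, edgeR adjusted p = 0.0158), kept in all 7. Mmp9, a gelatinase that docks on CD44 and is made by neutrophils and macrophages, was at 7.9 to 12.9 CPM after DMSO and at 316, 39.3 and 35.7 CPM in mice 476, 477 and 478. Its log2 fold change was 3.63 (SE 0.79, edgeR adjusted p = 0.0194) and was 1.84 without mouse 476, and the call was lost without mouse 482 (adjusted p = 0.0543) or 483 and with every gene tested. Spp1, osteopontin, a protein ligand of CD44, rose by 2.76 on the log2 scale (adjusted p = 0.0371), and its groups overlapped, since DMSO-treated mouse 483 was at 16.2 CPM and ABT-263-treated mouse 478 at 11.7 CPM. The call for Spp1 was kept in 2 of the 7 fits, those without mice 483 and 478, with the highest adjusted p (0.158) without mouse 476, and was also lost with every gene tested. For Mmp14 the estimate was 0.19 (adjusted p = 0.592). The neutrophil and macrophage marker sums were also higher in the ABT-263-treated mice, and highest in mouse 476, as were Mmp9 and Spp1. Mouse 477 had the lowest of these sums after ABT-263 (5090 and 352 CPM) but was above mouse 478 for both genes, with Spp1 at 46.3 CPM. S100a8 and S100a9 held most of the neutrophil sums, and Ly6g was above the DMSO range in mouse 476 alone. The part of neutrophils and macrophages in the values of Mmp9 and Spp1 was not tested.

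Of the 6 ADAMTS proteases that cut versican, 5 had a positive log2 fold change and 1 passed the threshold. Adamts1 was at 20.8, 19.1, 28.8 and 27.5 CPM after DMSO and at 66.8, 31.6 and 47.7 CPM after ABT-263, with all ABT-263-treated mice higher (log2 fold change 1.02, SE 0.26, edgeR adjusted p = 0.0283). Only the fit without mouse 477 kept this call among the 7 with a mouse left out. Adamts15 and Adamts9 had log2 fold changes of 0.97 (adjusted p = 0.0563) and 1.32 (adjusted p = 0.0616), Adamts5 of 0.44 (adjusted p = 0.274) and Adamts4 of 2.08 (adjusted p = 0.12), with mouse 476 the highest for all 4. Adamts20 was at 4.63 CPM in DMSO-treated mouse 481 and at 0.537 to 1.15 CPM in the other 6 mice (log2 fold change -1.58, adjusted p = 0.142).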

How the data were processed

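RNA of dorsal skin from 7 mice was sequenced, 4 treated with DMSO and 3 with ABT-263, and grouped by the sample titles. The authors aligned the reads to mm10 with STAR 2.7.9a and deposited raw counts per Ensembl gene, made with featureCounts (Subread 1.6.2) from uniquely aligned proper pairs on the same strand, without mitochondrial genes. They also deposited values from the variance-stabilizing transformation of DESeq2 1.23.10, which resemble log2 counts, used here only as an alternative with limma. Each library is taken as 1 mouse, and the labels name no batch.

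Symbols, positions and exon lengths came from GENCODE M21 on GRCm38 (55190 of 55450 identifiers), which is not the Ensembl release the authors name, and promoters from RefSeq on GRCm38.p6. The counts were tested with edgeR 4.0.16 in R 4.3.3 (TMM, filterByExpr, robust quasi-likelihood F-test, two-sided), and p-values were adjusted by Benjamini and Hochberg over the 17959 genes that passed the filter with a threshold of 0.05. Standard errors are the absolute log2 fold change divided by the square root of F. CPM per kb divides CPM by the kilobases of all annotated exons of a gene. Exact permutation tests ran over all 35 splits of the mice on log2(CPM + 1). Scripts were tested on simulated data. Alternatives were DESeq2 1.42.0, edgeR with the size factors of DESeq2, no filter on low counts, thinned counts, removal of length and GC trends (mgcv 1.9.3), limma 3.58.1 on the variance-stabilized values, and leaving out each mouse.

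The genes and lists were chosen with earlier results of these data known. Named from each list are the genes past the threshold (the 4 with the largest changes if there are more), and in lists of up to 7 genes the others by value. Ptx3 falls outside this rule and was chosen after its values were seen. Of the marker genes, Krt85 could not be matched. The values of 1 gene of the lists are not reported here.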

Additional observations from a re-analysis of the deposited data

Results flagged for a closer look

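The 10 hyaluronan genes and the 15 pathway genes past the threshold were examined among the 4 DMSO-treated mice for 1 mouse set apart from its group (a gap, divided by the range of the group, above the critical value of Dixon), and 4 genes had one. Mouse 483 was far above the other DMSO-treated mice for Has1 (ratio 0.989) and for Spp1 (0.884). Mouse 480 was far above them for Cemip (0.89), and mouse 481 for Acan (0.864). Chance alone exceeds this value in about 5% of such groups, and 25 groups were examined. The 3 ABT-263-treated mice were not examined in this way.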

How the results depend on the processing

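The calls for Has2, Cemip and Vcan were made also by DESeq2's Wald test, with DESeq2's size factors, with length and GC trends removed and with limma on the variance-stabilized values. With counts thinned to the smallest library 2 of the 10 genes passed (without Has2), and with every gene tested 2 (without Cemip). Leaving out 1 mouse at a time gave 1 to 2, always with Vcan. Of the 51 pathway genes between 4 and 16 passed with a mouse left out: 7 without mouse 481, 4 without 482, 7 without 483, 6 without 476 and 7 without 478, against 15 with all mice. Of 129 alternative values of the 10 genes, 109 kept direction and side of the threshold, 13 lost the call and 7 turned sign, none of the last past the threshold: Has1 (-0.77) and Cd44 (-0.06) without mouse 476, Has3 (-0.12) and Hapln3 (-0.04) without 477, Hyal2 (-0.01) without 481, Hapln3 without 483 (-0.22) and with length and GC trends removed (-0.04). The highest estimates of these genes over the same fits were 2.86 for Has1, 0.5 for Has3, 0.23 for Hyal2, 0.44 for Cd44 and 0.3 for Hapln3. The cause was not tested. DESeq2 gave no adjusted p for Has1. Over all genes, 2837 passed without mouse 481, 1824 without 482, 2063 without 483, 2228 without 476 and 1735 without 478, against 4342. Has2 and Hapln3 had few read pairs, which limits their precision. No paired analysis was possible because the groups share no replicate number.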

Other observations

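For each synthase, the 3 protein-coding genes with the most similar expression over the 7 mice were looked up by the Pearson correlation of log2(CPM + 1), among genes tested with a mean of at least 1 CPM. These are descriptions over 7 mice of 2 treatments. For Has1 they were Ddhd1, Mcl1 and P2ry10 (r = 0.983, 0.98 and 0.979), each highest in mouse 476, on which the likeness rests. Mcl1, an anti-apoptotic Bcl-2 family member, was at 553 CPM in mouse 476 and at 277 to 343 CPM in the other 6. For Has2 they were Adpgk, Plekha3 and Tmem243 (r = 0.998, 0.995 and 0.991), which themselves were higher after ABT-263 (log2 fold changes of 0.67, 1.27 and 1.15, adjusted p = 0.048, 0.0437 and 0.0258 from edgeR). These 3 were picked on the same mice for likeness to Has2, whose groups did not overlap, so their p-values are not separate evidence. For Has3 they were Aaas, Rps6 and Polr1e (r = 0.982, 0.963 and 0.961), of which none passed the threshold.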
